A study of Mus musculus with 6 samples.

Results

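The mitochondrially encoded respiratory chain genes described here are the 10 rows of the gene count table with the symbols COX1, COX2, COX3, CYTB, ATP6, ND1, ND2, ND4, ND5 and ND6, out of 46095 gene symbols. They were chosen by symbol, and all 10 passed the filter on low counts. The cells were BV2, a microglial line of the mouse that grows without limit in culture. The CON group received no treatment, and the other group was exposed for 6 h to the recombinant protein sTREM-1 at 1 µg/mL. sTREM-1 is the soluble form of TREM-1, a receptor of myeloid cells. RNA of 3 libraries per group was sequenced, and the libraries held between 40070633 and 45877107 counts. The labels do not say whether the libraries of a group came from separate cultures, so that each p-value measures the spread between these libraries, which may be technical. Both groups are the same cell line with no genetic change, and the comparison asks how sTREM-1 alters the transcripts of microglia.

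The respiratory chain sits in the inner membrane of mitochondria, passes electrons from NADH and succinate to oxygen, and uses the proton gradient that results to make ATP. Most of its subunits are encoded in the nucleus and imported, while a small core is encoded by the circular mitochondrial genome and made by ribosomes inside the organelle. Both strands of that genome are transcribed into long RNAs by a dedicated polymerase, and the transfer RNAs between the genes mark most of the points where single messenger RNAs are cut out. In microglia the balance between respiration and glycolysis is known to shift with activation.

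The 10 genes lie on the mitochondrial chromosome, and 9 of them are annotated on its plus strand, while ND6 is on the minus strand. In the GENCODE M21 annotation of the mouse build GRCm38, ND1 spans positions 2751 to 3707, ND2 3914 to 4951, COX1 5328 to 6872, COX2 7013 to 7696, ATP6 7927 to 8607 and COX3 8607 to 9390. ND4 follows from 10167 to 11544, ND5 from 11742 to 13565, ND6 from 13552 to 14070 and CYTB from 14145 to 15288. All are protein-coding genes of a single exon. Some neighbours overlap. ATP6 shares 43 bases with ATP8 on the same strand and 1 base with COX3, and ND4 shares 7 bases with ND4L. ND5 and ND6 share 14 bases on opposite strands. Whether the counting used strand is not given in the sources used here, and without it the reads of ND5 and ND6 in these bases cannot be told apart. The last 60 bases of ND5 are shown because its end is where ND6 begins on the other strand, with the shared bases in capitals, 5′ to 3′ from GENCODE M21.
ND5: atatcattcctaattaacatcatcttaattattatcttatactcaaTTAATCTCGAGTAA

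Copies of mitochondrial DNA that were inserted into nuclear chromosomes can be nearly identical to it, and a read that matches both places equally well can be split or lost when reads are counted. The transcripts of the 10 genes were therefore compared with all GENCODE M21 transcripts of nuclear genes. A run of 7 unprocessed pseudogenes on chromosome 1 of GRCm38, within positions 24611535 to 24616197, matched the mitochondrial genes from the end of COX1 to the start of ND4 at 99.71 to 100% identity, with 2 mismatches in 4140 aligned bases. It held a copy of 5 of the 10 genes. COX2 matched Gm28661 over 681 of its 684 bases, ATP6 matched Gm10925 over 678 of 681, and COX3 matched Gm28437 over 783 of 784, all with 0 mismatches. ND4 matched Gm28439 over its first 876 of 1378 bases, also with 0 mismatches. COX1 matched Gm29216 over its last 483 of 1545 bases, with 1 mismatch. COX1 and COX2 also had less similar copies on chromosome 2. Gm13340 matched COX1 over all 1545 bases at 97.61% identity, with 37 mismatches, and Gm13341 matched COX2 at 95.91%. The remaining 5 genes had no copy of 99% identity or more. Over the longest stretches that aligned, ND2 was 96.67% identical to Gm13339, ND6 was 93.64% identical to Gm11408, CYTB was 92.91% identical to Gm11410 and ND5 was 92.34% identical to Gm11407. A shorter stretch of ND5, of 954 aligned bases, was 95.18% identical to Gm4076. No copy of ND1 was found among these transcripts with at least 85% identity over 100 bases.

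The stretches below show how much the copies leave for a read to be told apart by. Each is 60 bases, 5′ to 3′, with the bases that differ between a gene and the copy shown with it in capitals. The COX2 stretch, from base 311 to 370 of the gene, has 0 differing bases. The COX1 stretch, from base 1063 to 1122, holds the 1 base by which the end of that gene differs from Gm29216. The ND6 stretch, from base 230 to 289, has 8 differing bases.
COX2: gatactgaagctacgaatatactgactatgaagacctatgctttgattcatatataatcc
Gm28661: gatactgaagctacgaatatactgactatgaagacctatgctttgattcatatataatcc
COX1: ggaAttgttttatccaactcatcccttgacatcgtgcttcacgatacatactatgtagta
Gm29216: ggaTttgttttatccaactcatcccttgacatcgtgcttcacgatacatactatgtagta
ND6: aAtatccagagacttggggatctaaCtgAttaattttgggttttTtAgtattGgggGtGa
Gm11408: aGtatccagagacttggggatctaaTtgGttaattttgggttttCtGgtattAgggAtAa
In ND4 the copy ends inside the gene. In the stretch from base 847 to 906, the capitals mark the last 30 bases that are also in Gm28439.
ND4: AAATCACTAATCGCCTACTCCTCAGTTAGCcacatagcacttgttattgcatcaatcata

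Cut into all windows of 100 bases, 99.9% of the windows of COX3, 99.5% of those of COX2 and 99.5% of those of ATP6 were found unchanged in a nuclear transcript. The share was 60.8% for ND4, 30.8% for COX1, 3.19% for ND2 and 0% for ND1, ND5, ND6 and CYTB. With windows of 50 or 150 bases, COX2, ATP6 and COX3 stayed at 99.4% or above, and ND1, ND6 and CYTB stayed at 0%. The shares of the others moved with the window length. With windows of 50 bases they were 62.2% for ND4, 51.1% for COX1, 8.19% for ND2 and 7.61% for ND5, and with windows of 150 bases 59.2%, 23.6%, 0% and 0%. The read length and the treatment of reads with several matches are not given in the sources used here, and only annotated transcripts were searched, not the nuclear genome.

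The levels of the 10 genes, given as CPM, the count scaled to a common library size with TMM factors, per kilobase of coding length, spanned a wide range. COX1, the catalytic subunit of cytochrome c oxidase, was the most abundant, with 7117 ± 180 CPM per kilobase in the CON group and 7679 ± 35.7 after sTREM-1 (SD, n = 3 each). CYTB, the cytochrome b of complex III, followed with 1468 ± 25.9 and 1639 ± 37.9 CPM per kilobase. After these came ND1 with a CON level of 1097 ± 47.3, ND5 with 752 ± 27.4, ND2 with 465 ± 22.4 and ND4 with 322 ± 6.26 CPM per kilobase (SD, n = 3). These last 4 and ND6 encode membrane subunits of complex I, the NADH dehydrogenase. ND6 had a CON level of 84.9 ± 2.84 CPM per kilobase. At the low end, COX2 had 46.4 ± 2.61, ATP6 16.4 ± 1.32 and COX3 16.4 ± 1.205 CPM per kilobase in the CON group. In this order every library of a gene lay above every library of the next gene, except that ATP6 and COX3 overlapped. Each level was divided by the whole coding length, although 60.8% of the 100-base windows of ND4 and 30.8% of those of COX1 were also in nuclear transcripts. The order is therefore one of counts per length, and it may differ from the order of transcript abundance. COX2, ATP6 and COX3, which encode a copper-binding subunit of complex IV, a membrane subunit of the ATP synthase and a core subunit of complex IV, were also the 3 genes found almost wholly in the nuclear copies. The part of these copies in the levels was not tested. Of the pseudogenes on chromosome 1, Gm10222, the copy of ND4L, had a row with 24 to 53 counts per library. The others had no row under their GENCODE symbols.

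**Figure D1:**
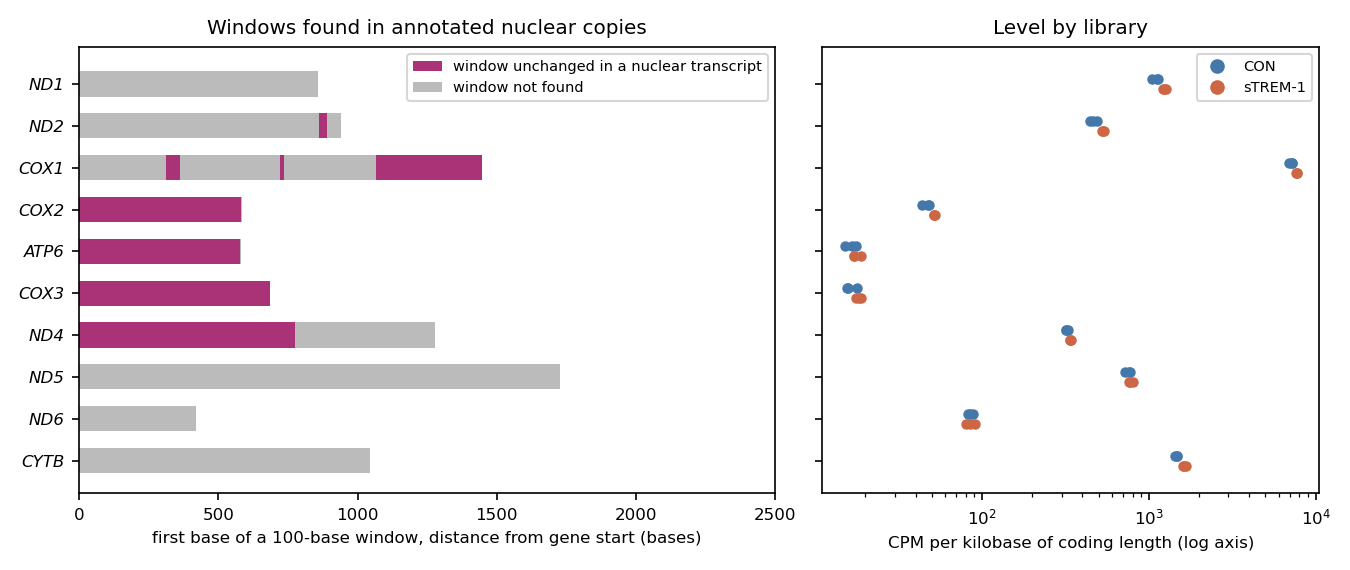
Left, each bar is a gene in its order along the mitochondrial genome, running over the first bases of its 100-base windows (x axis, distance from the gene's start in bases), with windows found unchanged in an annotated nuclear transcript in purple and the others in grey. Right, each point is 1 library, with its level in CPM per kilobase on a log axis, CON in blue and sTREM-1 in orange; COX2, ATP6 and COX3, which are purple over almost their whole length, have the lowest levels, and COX1 the highest at 7117 CPM per kilobase in the CON mean.

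Together the 10 genes made up 1.57, 1.64 and 1.65% of all counts in CON replicates 1, 2 and 3, and 1.74, 1.73 and 1.74% in sTREM-1 replicates 1, 2 and 3. Every sTREM-1 library lay above every CON library, and CON replicate 1 was the lowest of all. The mean was 1.62 ± 0.0418% in the CON group and 1.74 ± 0.00148% after sTREM-1 (SD, n = 3 each), a ratio of 1.07, which was 1.06 without CON replicate 1. COX1 alone supplied 68.2% of the summed counts in the CON group and 67.9% after sTREM-1, so the sum is mostly COX1. Without COX1 the other 9 genes made up 0.516 ± 0.0153% of counts in the CON group and 0.557 ± 0.00995% after sTREM-1 (SD, n = 3 each), a ratio of 1.08. In bulk RNA, more mitochondrial RNA per cell and more cells rich in mitochondria cannot be told apart.

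Compared with the CON group, 6 of the 10 genes were higher after sTREM-1 by the quasi-likelihood test of edgeR (p-values adjusted after Benjamini and Hochberg over 14120 tested genes, threshold 0.05), and 0 were lower. The background was 16.5% of all tested genes higher and 14.1% lower. The genes of each strand are transcribed together as long RNAs, so the 10 are not independent observations. The background was also not matched for level. COX1, CYTB, ND1, ND2 and ND4 had CON means of 444 to 10995 CPM and standard errors of 0.016 to 0.027, so that small changes could pass. The genes that rose were COX1, COX2, CYTB, ND1, ND2 and ND4. At an unadjusted p-value under 0.05, 7 were higher and 0 lower, and DESeq2 called 5 higher and 0 lower. For the same 6 genes every sTREM-1 library lay above every CON library, which held for 21.3% of all tested genes, and for 40.7% when both directions were counted. All 10 log2 fold changes were positive, from 0.0020 for ND6, whose sign turned with RLE size factors and with library totals, to 0.19 for ND2, with a median of 0.13 against -0.0017 over all tested genes. The sizes were small, and ND2 rose by the largest fold of 1.14.

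**Figure D2:**
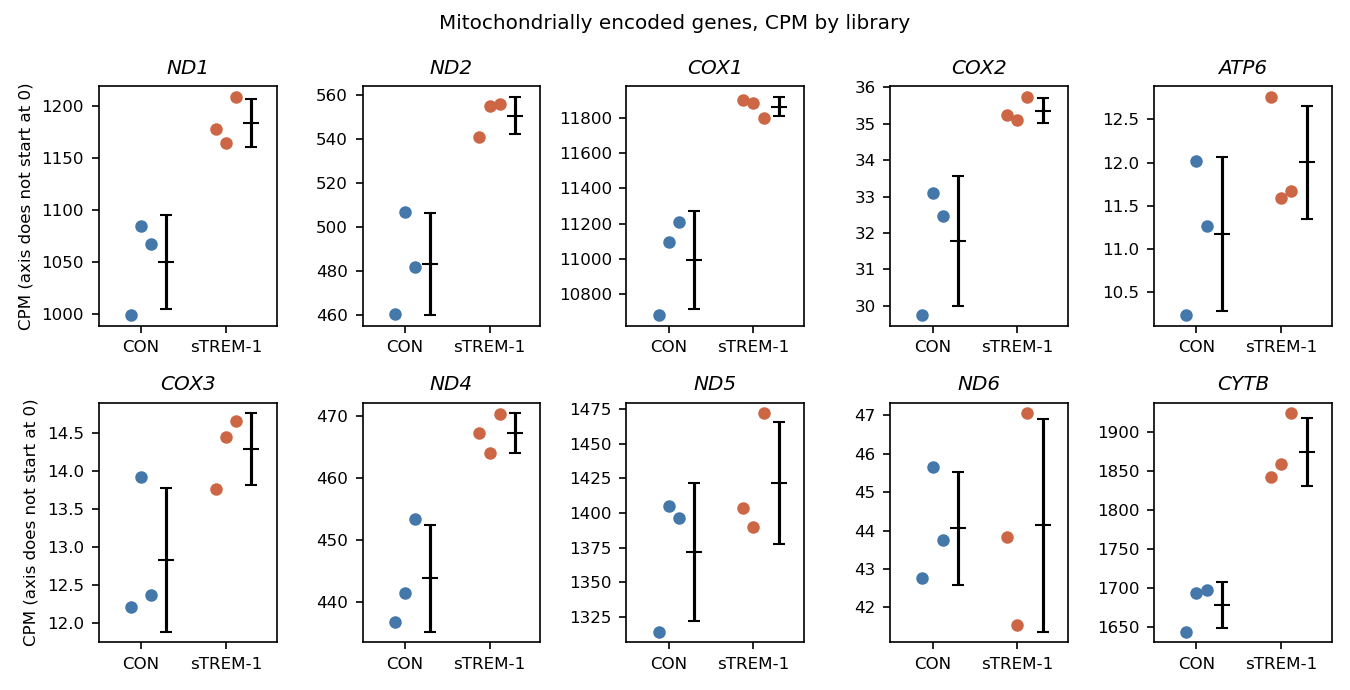
Each panel is 1 gene, with CPM on a y axis of its own that does not start at 0; points are libraries in the order of their replicate numbers, and the bar beside them is the mean ± SD of 3 libraries. The groups do not overlap for ND1, ND2, COX1, COX2, ND4 and CYTB, and they overlap for ATP6, COX3, ND5 and ND6.

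Among the complex I genes, ND1, which lies where the membrane arm of the complex meets its peripheral arm, had 999, 1084 and 1067 CPM in CON replicates 1, 2 and 3. After sTREM-1 it had 1178, 1164 and 1209 CPM. The lowest treated library was thus above the highest untreated one. ND1 rose by 0.17 on the log2 scale, with a standard error of 0.02 (edgeR, adjusted p = 1.4e-06). ND2, one of the antiporter-like subunits of the membrane arm, had 461, 507 and 482 CPM in the CON libraries and 541, 555 and 556 CPM after sTREM-1. The groups were again apart, with the highest CON library in replicate 2. The rise of ND2 was 0.19 on the log2 scale, with a standard error of 0.03 (edgeR, adjusted p = 1.6e-06).

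ND4, another antiporter-like subunit, had 437, 441 and 453 CPM in the CON libraries and 467, 464 and 470 CPM after sTREM-1. The groups did not overlap, although the gap between them was narrow. On the log2 scale ND4 rose by 0.07, with a standard error of 0.02 (edgeR, adjusted p = 0.0132). The adjusted p-value was 0.0956 without CON replicate 1, 0.0507 without CON replicate 2, 0.0513 without sTREM-1 replicate 1 and 0.0542 with library totals, so that its call was lost in these fits.

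ND5, the antiporter-like subunit at the far end of the membrane arm, had 1314, 1405 and 1396 CPM in the CON libraries and 1403, 1390 and 1472 CPM after sTREM-1. The groups overlapped, and CON replicate 1 and sTREM-1 replicate 3 were the extremes. Its log2 fold change of 0.05 did not pass the test (standard error 0.02, edgeR adjusted p = 0.103). Without CON replicate 2 the adjusted p-value was 0.0493. ND6, the gene on the minus strand, had 42.8, 45.7 and 43.7 CPM in the CON libraries and 43.8, 41.5 and 47.1 CPM after sTREM-1. The sTREM-1 libraries held both the lowest and the highest value. The difference was 0.0020 on the log2 scale, with a standard error of 0.05 (edgeR, adjusted p = 0.984), and the sign changed with the scaling and with the library left out.

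CYTB, the only mitochondrially encoded subunit of complex III, had 1645, 1695 and 1697 CPM in the CON libraries. It had 1842, 1859 and 1924 CPM after sTREM-1. The distance between the groups was larger than the spread within either. CYTB rose with a log2 fold change of 0.16 (standard error 0.02) and had the smallest adjusted p-value of the 10 genes (edgeR, adjusted p = 2.3e-07).

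Of the complex IV genes, COX1 had 10681, 11096 and 11209.6 CPM in the CON libraries and 11904, 11887 and 11801 CPM after sTREM-1. All treated libraries were higher than all untreated ones, and CON replicate 1 was lowest. COX1 rose by 0.11 on the log2 scale, with a standard error of 0.02 (edgeR, adjusted p = 1.8e-06). COX2 had 29.7, 33.1 and 32.5 CPM in the CON libraries and 35.2, 35.1 and 35.7 CPM after sTREM-1. The groups were apart, and most of the spread was in the CON group. For COX2 the rise was 0.15 on the log2 scale, with a standard error of 0.05 (edgeR, adjusted p = 0.0222). This call was lost without CON replicate 1 (adjusted p = 0.170, log2 fold change 0.11), without sTREM-1 replicate 1 (adjusted p = 0.0596), without sTREM-1 replicate 3 (adjusted p = 0.0717) and in DESeq2 (adjusted p = 0.0503).

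COX3 had 12.2, 13.9 and 12.4 CPM in the CON libraries and 13.8, 14.5 and 14.7 CPM after sTREM-1. The groups overlapped only through CON replicate 2. The log2 fold change of COX3 was 0.16, with a standard error of 0.08 (edgeR, adjusted p = 0.168). ATP6, the only gene of the ATP synthase among the 10, had 10.23, 12.02 and 11.27 CPM in the CON libraries and 12.8, 11.6 and 11.7 CPM after sTREM-1. Here too the groups overlapped only through CON replicate 2, which lay above the lower treated libraries. ATP6 had a log2 fold change of 0.10, with a standard error of 0.09 (edgeR, adjusted p = 0.423). ATP6 and COX3 rested on 419 to 629 counts per library, against 437385 to 543867 for COX1.

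**Figure D3:**
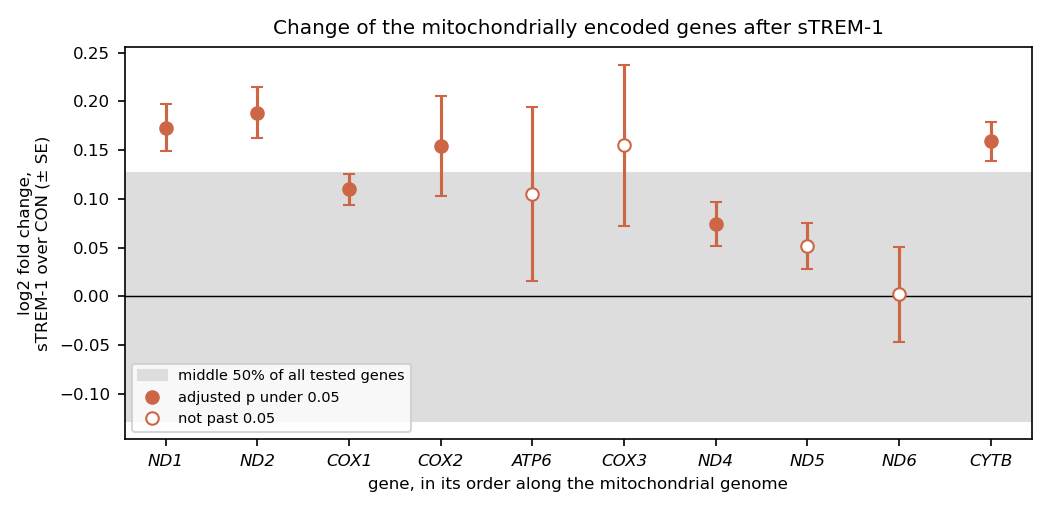
Points are log2 fold changes of sTREM-1 over CON with their standard errors, filled where the adjusted p-value is under 0.05, for the genes in their order along the mitochondrial genome. The grey band is the middle 50% of all tested genes; ND1, ND2, COX2, COX3 and CYTB lie above it, and ND6 sits at 0.0020.

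The genes were then set against each other, since the summed level of the 10 was itself higher after sTREM-1. As a share of the summed counts, ND2 was 2.95, 3.10 and 2.94% in the CON libraries and 3.10, 3.19 and 3.17% after sTREM-1. ND1 was 6.39, 6.64 and 6.50% in the CON libraries and 6.75, 6.68 and 6.89% after sTREM-1. The ND1 shares did not overlap, while those of ND2 did by a small margin. ND5 was 8.41, 8.60 and 8.51% in the CON libraries and 8.05, 7.98 and 8.39% after sTREM-1, and every treated library was below every untreated one. ND4 was 2.79, 2.70 and 2.76% in the CON libraries and 2.68, 2.66 and 2.68%, which were also apart. ND6 was 0.274, 0.280 and 0.267% in the CON libraries and 0.251, 0.238 and 0.268% after sTREM-1, with an overlap through sTREM-1 replicate 3. As a percentage of ND1 alone, ND6 was 4.28, 4.21 and 4.10% in the CON libraries and 3.72, 3.57 and 3.89% after sTREM-1, and these did not overlap. When the libraries were scaled to the summed counts of the 10 genes, the log2 fold changes ran from -0.11 for ND6 (adjusted p = 0.0803) and -0.06 for ND5 (adjusted p = 0.0843) to 0.07 for ND2 (adjusted p = 0.0703, all edgeR), and none of the 10 passed the threshold. COX1 made up most of that sum, so each gene was compared mainly with COX1. Whether single genes differed from each other in their response was not tested.

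**Figure D4:**
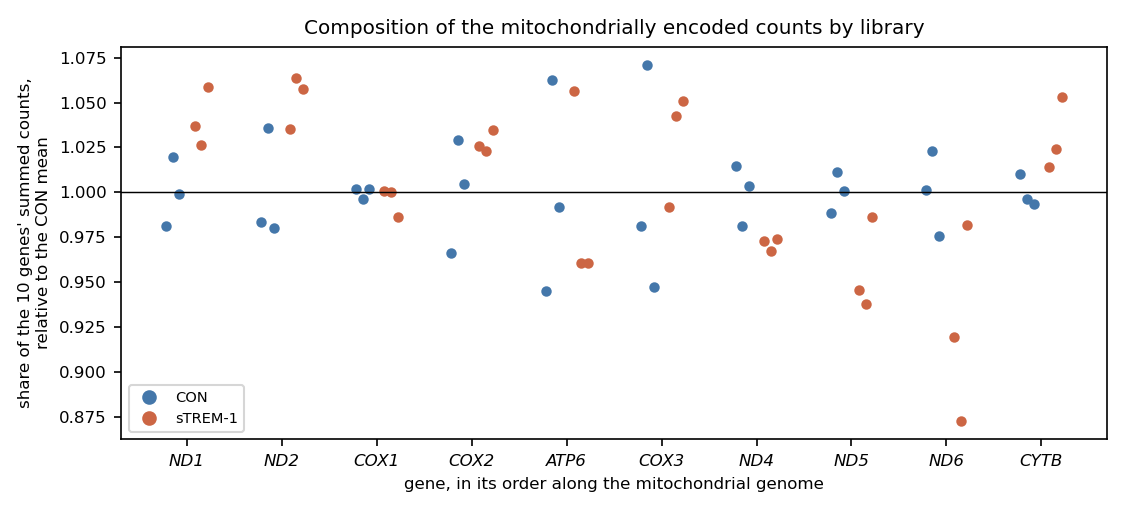
Each point is 1 library's share of a gene in the summed counts of the 10 genes, divided by the CON mean of that share, with CON in blue, sTREM-1 in orange and the line at 1. The sTREM-1 libraries lie above the CON libraries for ND1 and CYTB and below them for ND4 and ND5.

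The table also held the 3 other protein-coding genes of the mitochondrial genome, at far lower counts. ATP8, the second mitochondrial subunit of the ATP synthase, had 76 to 107 counts per library, ND4L had 19 to 38 and ND3 had 7 to 21. None passed the test, with log2 fold changes of 0.13 for ATP8, 0.23 for ND4L and 0.16 for ND3 (standard errors 0.21, 0.36 and 0.51). Of the windows of 100 bases, 98.5% of ND4L and 97.6% of ND3 were found in a nuclear transcript, and 0% of ATP8. Only annotated transcripts were searched, so the 0% does not show that ATP8 lacks a nuclear copy. ATP8 lies between COX2 and ATP6, which both have a copy in the run on chromosome 1. The ribosomal RNA rows, Rnr1 and Rnr2, had 39 to 78 and 45 to 76 counts. The labels name standard Illumina protocols and do not say whether ribosomal RNA was removed or polyadenylated RNA selected, which bears on how mitochondrial transcripts are represented.

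The nuclear-encoded partners of these genes did not share one direction. Of 82 listed subunits of complexes I to V, 78 were tested, 11 were higher and 7 lower after sTREM-1, and 60 did not pass (edgeR, adjusted p-value under 0.05). That is a share of calls below the 30.5% over all tested genes. The balance of directions was not stable, with 9 higher and 12 lower when library totals were used for scaling and 7 higher and 10 lower without CON replicate 3. Their median log2 fold change was 0.02, against 0.13 for the mitochondrially encoded genes and -0.0017 over all tested genes.

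For complex I, 5 of 35 tested nuclear subunits were higher and 2 lower. Ndufv3, an accessory subunit of the NADH-binding module, had 51.6 ± 2.16 CPM in the CON group and 64.0 ± 3.93 after sTREM-1 (SD over 3 libraries), and rose by 0.31 on the log2 scale (edgeR, adjusted p = 2.9e-06). Ndufv1, which binds NADH, and Ndufb5 and Ndufs6, which are accessory subunits, rose with log2 fold changes of 0.11, 0.17 and 0.17. Ndufs4 fell by 0.08 on the log2 scale. The summed CPM of the 5 mitochondrially encoded complex I genes was 1.44, 1.54 and 1.58 times that of the nuclear subunits in the CON libraries and 1.62, 1.57 and 1.65 times after sTREM-1. These ratios overlapped between the groups.

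In complex III, 1 of 9 nuclear subunits was higher and 3 were lower. Uqcrh, the hinge protein next to cytochrome c1, had 56.9 ± 0.564 CPM in the CON group and 47.9 ± 2.58 after sTREM-1, and fell by 0.25 on the log2 scale (edgeR, adjusted p = 4.5e-05). Uqcrq fell with a log2 fold change of -0.14, and Uqcr10 rose with 0.10. CYTB, in contrast, was higher. Its CPM was 1.69, 1.76 and 1.78 times the summed nuclear subunits in the CON libraries and 1.99, 1.99 and 2.06 times after sTREM-1, with no overlap, and the mean ratio was 1.15 times higher after sTREM-1. The test of this ratio was not run, since CYTB was chosen with results known.

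Complex IV had 2 of 13 nuclear subunits higher and 0 lower, while 3 and 3 had an unadjusted p-value under 0.05 and DESeq2 called 2 and 0. Cox6a1 and Cox5a, which surround the mitochondrial core of the enzyme, rose with log2 fold changes of 0.13 and 0.12. The ratio of mitochondrial to nuclear complex IV CPM was 6.73, 7.12 and 7.27 in the CON libraries and 7.46, 7.55 and 7.23 after sTREM-1, which overlapped. COX1 supplied 10995 of the 11040 CPM of the mitochondrial sum in the CON mean, so this is in effect a ratio of COX1 alone. In complex V, 2 of 17 nuclear subunits were higher and 2 lower. Atp5a1 and Atp5b, which form the catalytic head, rose with log2 fold changes of 0.10 and 0.07. Atp5k and Atp5f1, which belong to the membrane part and the stalk, fell by 0.21 and 0.07 on the log2 scale. Complex II has no mitochondrially encoded subunit. Of its 4 genes only Sdha, the flavoprotein subunit, passed, with a log2 fold change of 0.12 (edgeR, adjusted p = 2.4e-04).

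The proteins that copy, transcribe, process and translate mitochondrial genes are all encoded in the nucleus. Of 56 such genes, all tested, 11 were higher and 3 lower, against 16.5% and 14.1% of all tested genes. Without sTREM-1 replicate 1, 7 were higher and 2 lower. Of the 10 genes for transcription, 0 passed in either direction in edgeR or DESeq2, and 0 had an unadjusted p-value under 0.05. The median log2 fold change of these 10 was -0.04, and 2 of them were positive. The values ran from -0.89 for Mterf2 to 0.07 for Tfb1m. Polrmt, the mitochondrial RNA polymerase, had 32.5 ± 0.443 CPM in the CON group and 32.4 ± 0.648 after sTREM-1. Tfam, which bends the promoter DNA and packages the mitochondrial genome, had 46.7 ± 0.749 and 46.9 ± 2.94 CPM (SD, n = 3 each). Their log2 fold changes were -0.00075 and 0.0076, with standard errors of 0.05 and 0.05.

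Of the 21 genes for processing and stability of mitochondrial RNA, 6 were higher and 1 lower. Lrpprc and Slirp form a complex that protects mitochondrial messenger RNAs from decay. Lrpprc had 143 ± 4.30 CPM in the CON group and 154 ± 1.29 after sTREM-1, a rise of 0.10 on the log2 scale with a standard error of 0.03 (edgeR, adjusted p = 0.0085). Slirp had 23.9 ± 0.865 and 26.9 ± 1.49 CPM, a rise of 0.17 with a standard error of 0.06 (edgeR, adjusted p = 0.0321). Grsf1, an RNA-binding protein of mitochondrial RNA granules, rose with a log2 fold change of 0.20, and Pnpt1, the mitochondrial polynucleotide phosphorylase, with 0.17. Ptcd2 and Tbrg4 rose with 0.17 and 0.15. Fastkd1 fell with a log2 fold change of -0.25.

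Among 11 genes of mitochondrial DNA maintenance, 2 were higher and 0 lower, while 2 and 1 had an unadjusted p-value under 0.05 and DESeq2 called 2 and 0. They were Peo1, the replicative helicase, and Ssbp1, the single-stranded DNA-binding protein, with log2 fold changes of 0.17 and 0.14. Of 14 genes of mitochondrial translation, 3 were higher and 2 lower, while DESeq2 called 1 higher and 2 lower. Gfm1 and Tufm, both elongation factors, rose with log2 fold changes of 0.25 and 0.17, while Gfm2, which acts in ribosome recycling, and Mtrf1l, a release factor, fell with -0.12 and -0.31. Of 10 regulators of mitochondrial biogenesis, 0 were higher and 1 lower, with 1 higher at an unadjusted p-value under 0.05 and 0 higher in DESeq2. The lower gene was Ppargc1b, a coactivator of nuclear genes for respiration, with a log2 fold change of -0.21 (edgeR, adjusted p = 0.0060).

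**Figure D5:**
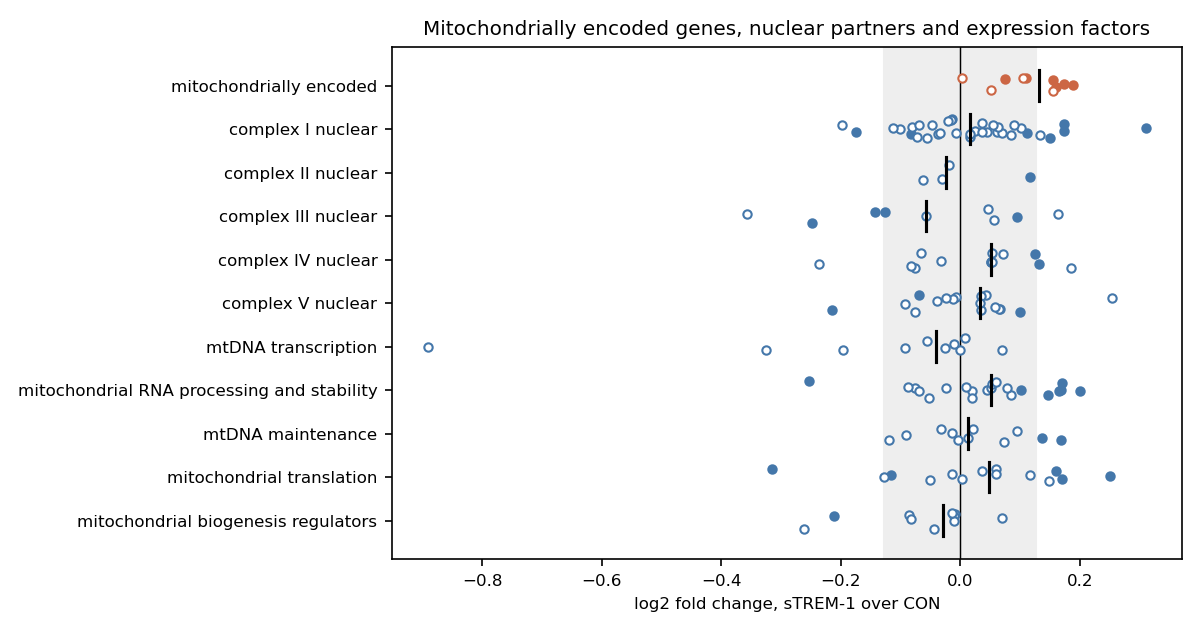
Each point is a gene, with its log2 fold change of sTREM-1 over CON on the x axis and its list on the y axis, filled where the adjusted p-value is under 0.05; the black bar is the median of the list and the grey band the middle 50% of all tested genes. The mitochondrially encoded genes, in orange, have a median of 0.13, and the nuclear lists have medians between -0.06 and 0.05.

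The mean profile of the 6 genes that rose was compared over the 6 libraries with 7520 other genes that had a mean of more than 20 CPM. Nearest to it were Jade1, Atad1, Phkb, Fgfr1op2 and Ier3, with a root mean square distance of 0.0081 to 0.0156 in centred log2 CPM. Their log2 fold changes were between 0.14 and 0.16, which follows from their choice by likeness to this profile.

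The cell line was checked against marker genes. Of 10 markers of microglia and macrophages, 9 were tested. Itgam, Csf1r, Cd68, Ptprc, Tyrobp, Fcer1g and Trem2 had means between 116 and 753 CPM. P2ry12 and Tmem119 had under 2 CPM, and Aif1, which encodes IBA-1, had 0 counts in every library. Whether the 0 of Aif1 comes from the cells or from the counting of reads was not tested. Of the 46095 gene symbols, 23335 had 0 counts in every library. The summed level of the list was 2662 to 2684 CPM of the unscaled library total in the CON group and 2834 to 2894 after sTREM-1, with 3 genes higher and 1 lower. Csf1r had the largest called change of these, with a log2 fold change of 0.53. The part of this shift in the mitochondrial result was not tested. Of neuron, astrocyte and fibroblast markers, the summed levels were 0.0467 to 0.564 CPM on that scale, and those of oligodendrocytes were 7.33 to 7.96 CPM in the CON group and 5.56 to 6.64 CPM after sTREM-1, which did not overlap. Of the 4 oligodendrocyte markers 2 were tested and 0 passed, with 1 lower at an unadjusted p-value under 0.05 and 0 called in DESeq2. The part of this difference in the mitochondrial result was not tested either. Rbfox3, Aqp4 and Mog had 0 counts in every library.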

How the data were processed

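The deposited table gives, for each gene symbol, the whole-number counts of 6 libraries, which the authors had not normalized. The paper's methods name FastQC, RSEM and edgeR, while the submitters' processing notes list HISAT2 2.0.4 and the human builds hg19 and GRCh38. The symbols are those of the mouse annotation. Which of these tools made the counts, the mouse build, the strand and the handling of reads with several matches are not given in the sources used here. Groups and replicate numbers were taken from the labels, which give 3 per group, while the paper's methods give another number. After filterByExpr (minimum count 10) and TMM scaling, 14120 genes entered a quasi-likelihood fit without covariates (edgeR 4.0.16, R 4.3.3), and p-values were adjusted after Benjamini and Hochberg. Each standard error was the log2 fold change divided by the square root of F. CPM uses the TMM-scaled library size, and log2 CPM used a prior count of 2. Between libraries of a group the chi-square per gene was 3.48 to 5.02, so all were kept as replicates. The procedure was tested on counts simulated from the fitted model. The requirement set there was for a fold larger than that of any of the 10 genes, and recovery at their own size is not given here.

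Nuclear copies were searched with blastn 2.17.0 in the GENCODE M21 transcripts (at least 85% identity over 100 bases), and members were placed in that annotation through RefSeq positions of GRCm38.p6. The genes and lists were chosen with earlier results of these data known. Besides the 10 genes, named genes are the at most 4 per list and direction (2 for lists of fewer than 15) with the smallest adjusted p-values and groups apart, Polrmt, Tfam, Lrpprc and Slirp, the 5 nearest profiles, and genes that overlap or copy a member. Alternatives were RLE factors, library totals, scaling without mitochondrial rows, no filter, DESeq2 1.42.0, a replicate block, leaving out each library and scaling to the members.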

Additional observations from a re-analysis of the deposited data

How the results depend on the processing

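The number of the 10 genes that were higher stayed at 6 with RLE factors, without a filter and with scaling that left out mitochondrial rows. It was 5 with library totals and in DESeq2, 7 with the replicate block and 4 to 6 without each library. No fit called a gene lower. COX1, CYTB, ND1 and ND2 kept their call in all of these. ND4 had an adjusted p-value of 0.0542 with library totals, and ND5 one of 0.0222 with the replicate block. Deviations of same-numbered libraries correlated at -0.0178, -0.0335 and -0.0137, and same-numbered libraries were not treated as pairs.

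The log2 fold change of ND6 was -0.0011 with RLE factors, -0.015 with library totals and between -0.047 and 0.042 without each library, being below 0 without CON replicate 1 (-0.0196), CON replicate 3 (-0.0050) or sTREM-1 replicate 3. Scaled to the summed counts of the 10 genes, the log2 fold changes of COX1, ATP6, ND4, ND5 and ND6 were -0.0059, -0.010, -0.042, -0.064 and -0.114. Scaled to ND1, ND2, ND5, ND6 and CYTB, a choice made after the data were seen, they were -0.023, -0.026, -0.059, -0.081 and -0.131. Removing the shared rise from every gene is what these scalings do.

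The mean share of counts was 1.07 times higher, and 1.06 to 1.08 times without each library. The share of ND6 in the summed counts was 0.925 times that of CON. The nuclear subunits called numbered 15 to 21 over all alternatives, against 18. The mitochondrial expression genes called numbered 14, and 9 to 13 without each library. Over all tested genes 4312 were called, 3608 at fewest and 4613 with the replicate block. With library totals 2026 were higher and 2280 lower, against 2324 and 1988. ATP6 and COX3 had the fewest counts of the 10 genes, with their lowest values of 419 and 500 in CON replicate 1.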
